A study of Homo sapiens with 2 samples.

Results

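Vimentin (VIM), fibronectin (FN1) and the transcription factors ZEB1, ZEB2, SNAI1, SNAI2, TWIST1 and TWIST2 were examined in bulk RNA sequencing of 2 libraries labelled as A375, an established human melanoma cell line. These 8 genes were chosen by name and with their read counts in the same 2 libraries known, so that every level and difference given for them is a description and carries no test. A row was found for 7 of the 8 genes among the 18930 rows of the table. TWIST2 matched no row by symbol or NCBI Gene ID and was not analysed here. Of the 18267 genes with counts, 16210 had at least 10 reads over both libraries and were compared, and all 7 genes were among them.

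One library is labelled DR, for cells resistant to dacarbazine (DTIC), a drug that alkylates DNA, and the other is labelled WT, for the wild-type control. By the labels both were grown in DMEM with fetal bovine serum and both received the drug, spelled DITC there, for 105 days, whereas the study describes only the DR cells as selected in rising concentrations of the drug, over months. The count columns were matched through the sample descriptions, which differ from each other in 1 punctuation mark. Both of them look like the DR title and unlike the WT title, so each direction between the libraries depends on that match. With 1 library for each label there was no replicate check, and the intervals given are nominal 95% intervals for the counting of reads alone. Molecular identifiers are not described and reads may be copies of 1 molecule, so the intervals may be too narrow even for counting error. The estimated counts summed to 54878310 in the DR-labelled library and 35294629 in the WT-labelled library after rounding. The melanocytic identity was checked with a list of 12 markers, of which 10 had counts and 1 reached a level of 10 CPM (reads relative to the scaled size of the library) in each library. SOX10 had 3 reads in the DR-labelled library and 0 in the WT-labelled library. Of 15 plasma cell markers, 13 reached 10 CPM in each library. The markers therefore go against the labelled cell type, and the libraries are called by their labels only.

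Vimentin is the intermediate filament protein of mesenchymal cells, which many blood cells also carry, and fibronectin is a secreted glycoprotein of the extracellular matrix that binds integrins. The ZEB, SNAI and TWIST proteins are DNA-binding factors that recognise E-box sequences. They are known for the epithelial-mesenchymal transition, in which E-cadherin (CDH1) and other junction genes are repressed while vimentin, fibronectin and N-cadherin (CDH2) are raised. In melanoma, ZEB2 and SNAI2 are known from differentiated melanocytic cells, and ZEB1 and TWIST1 from dedifferentiated ones.

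The reference sequence before the start of VIM, FN1 and ZEB1 is shown because these were the most abundant of the 7 genes with a row and because the E-box is the letter pattern that the ZEB, SNAI and TWIST factors read. The RefSeq promoter table (GRCh38.p14) matched 5 of the 8 genes, with 11 windows. SNAI1, SNAI2 and TWIST1 had no entry. Each sequence below is the 250 bases before the start of the RefSeq gene, 5′ to 3′ on the strand of the gene, at chr10:17227991-17228240 (plus strand) for VIM, chr2:215436069-215436318 (minus strand) for FN1 and chr10:31318167-31318416 (plus strand) for ZEB1. Capitals mark any match, on either strand, to the E-box CANNTG, the GC box GGGCGG, the cyclic AMP response element TGACGTCA, the TATA box TATAAA or the AP-1 pattern TGANTCA. The submitters' processing notes name the older build hg19, and no measured value was placed on these coordinates.
VIM: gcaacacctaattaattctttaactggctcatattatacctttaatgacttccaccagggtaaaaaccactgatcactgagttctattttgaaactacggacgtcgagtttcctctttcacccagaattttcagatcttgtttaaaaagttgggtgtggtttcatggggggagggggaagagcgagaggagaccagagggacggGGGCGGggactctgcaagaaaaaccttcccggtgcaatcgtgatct
FN1: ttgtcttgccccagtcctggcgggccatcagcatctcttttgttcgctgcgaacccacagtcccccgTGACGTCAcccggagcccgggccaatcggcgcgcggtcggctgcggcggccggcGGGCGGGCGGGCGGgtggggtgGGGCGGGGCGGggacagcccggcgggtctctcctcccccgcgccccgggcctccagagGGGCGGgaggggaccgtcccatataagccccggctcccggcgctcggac
ZEB1: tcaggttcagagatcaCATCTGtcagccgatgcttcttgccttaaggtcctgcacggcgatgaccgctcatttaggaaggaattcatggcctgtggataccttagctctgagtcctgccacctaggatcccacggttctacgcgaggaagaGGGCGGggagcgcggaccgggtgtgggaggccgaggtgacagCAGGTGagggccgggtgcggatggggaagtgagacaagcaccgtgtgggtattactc
The VIM window held 1 GC box and no E-box, and the FN1 window held 6 GC boxes, 1 TGACGTCA and no E-box. The ZEB1 window held 1 GC box and 2 E-boxes, one of which, CAGGTG, is the reverse complement of CACCTG, the core read by ZEB and SNAI zinc fingers. Over 35116 windows of this length in the table, CANNTG occurred in 61.8%, CACCTG, which is also a CANNTG match, in 17.5%, GGGCGG in 42.6%, TGACGTCA in 1.65%, TATAAA in 10.7% and TGANTCA in 6.57%. ZEB1 had 7 windows in all, 2 of them with CACCTG. These are matches of letters in a window and not sites of binding. For ZEB1, GENCODE 29 lists 22 distinct transcript starts, none of them at the RefSeq start, base 31318417. The ZEB1 transcript marked there as principal starts further on, at base 31319125. The ZEB1 sequence shown therefore does not lie directly before that start. GENCODE 29 lists 9 distinct transcript starts for VIM, and that of the transcript VIM-201 lies 1037 bases after the RefSeq start used here, so that its own promoter is not the sequence shown.

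Of the 7 genes, VIM had the largest difference between the libraries. It had 7743 reads in the DR-labelled library and 40665 in the WT-labelled one, which is 139.4 and 1166.5 CPM after scaling. The level of VIM was thus 8.37-fold higher in the WT-labelled library (counting interval 8.17 to 8.58). On the scale of log2 (CPM + 0.5), which all log2 differences here share, the DR-labelled library was lower by a log2 difference of -3.06 (-3.10 to -3.03). Per length of gene, VIM ranked 111 of the 16210 genes in the WT-labelled library and 1149 in the DR-labelled one. Of the genes compared, 68 had a lower log2 difference. Among the 71 genes at 1000 CPM or more in the WT-labelled library, a limit set after its level was seen, 1 did, the receptor FGFR3.

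FN1 was the most abundant of the 7 genes in both libraries and differed far less. It had 271011 reads in the DR-labelled library and 223584 in the WT-labelled one, or 4878 and 6414 CPM. Per length it ranked 102 in the former and 75 in the latter, and it took 0.494% and 0.633% of all reads. Its log2 difference was -0.39 (-0.40 to -0.39), a level 1.31-fold higher in the WT-labelled library. VIM and FN1 were closer to each other in the WT-labelled library. In RPKM, which are CPM divided by the gene length in kilobases, the level of FN1 over that of VIM was 1.44 in the WT-labelled library and 9.18 in the DR-labelled one.

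Among the transcription factors, ZEB1, a zinc finger and homeodomain repressor of CDH1, was the most abundant. It had 1266 and 1476 reads in the DR- and WT-labelled libraries, or 22.8 and 42.3 CPM. The level was 1.86-fold higher in the WT-labelled library, a log2 difference of -0.88 (-0.99 to -0.77). Its relative ZEB2 had 64 and 28 reads, or 1.15 and 0.803 CPM, with a log2 difference of 0.34 (-0.10 to 0.77). The interval of ZEB2 spans 0, so that its reads do not set a direction. As for every gene here, the interval covers the counting of reads alone, without a replicate check. ZEB1 gave 95.2% of the reads of the pair in the DR-labelled library (Clopper-Pearson interval 93.9 to 96.3) and 98.1% in the WT-labelled one (97.3 to 98.8).

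SNAI1, the zinc finger factor Snail, was low in both libraries and higher in the DR-labelled one. It had 147 reads there against 34, or 2.65 against 0.975 CPM. The level was 2.71-fold higher in the DR-labelled library (1.86 to 4.06), and the log2 difference was 1.09 (0.70 to 1.48). That interval reaches below 1, and with a pseudocount of 5 CPM the log2 difference was 0.36. SNAI2, or Slug, had 41 and 17 reads in the DR- and WT-labelled libraries, 0.738 and 0.488 CPM, with a log2 difference of 0.33 (-0.14 to 0.76). TWIST1, a basic helix-loop-helix factor, had 167 and 109 reads, 3.01 and 3.13 CPM, with a log2 difference of -0.05 (-0.36 to 0.26). For SNAI2 and TWIST1 the counting intervals span 0.

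At a 2-fold threshold (a log2 difference of 1 in either direction), 1 of the 7 genes, SNAI1, was higher in the DR-labelled library and 1, VIM, was lower, while 5 lay between. Over all genes compared, 7.48% were higher and 4.16% lower by this threshold, with a median log2 difference of 0.01. The genes nearest to the threshold were SNAI1 just beyond it and ZEB1 just within it.

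**Figure D1:**
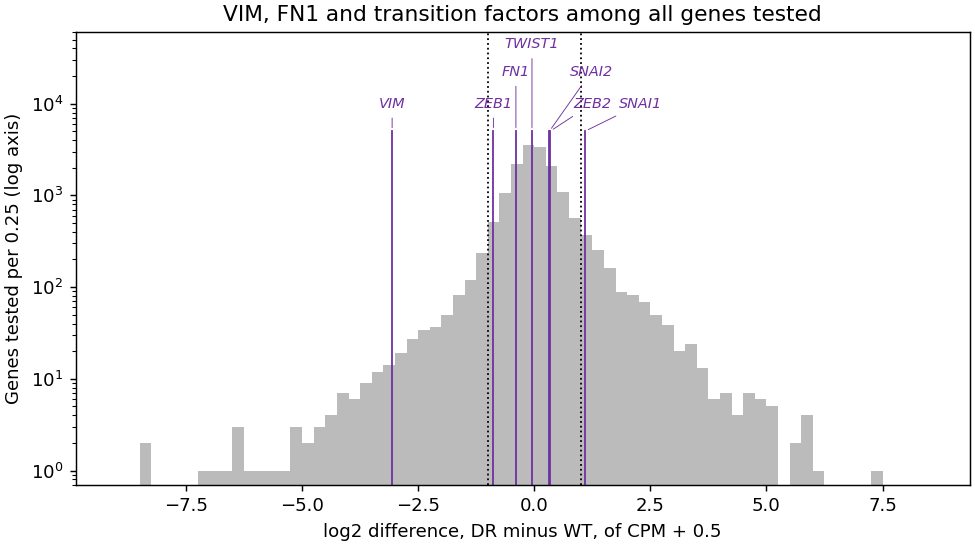
Number of genes compared (log axis) by log2 difference, the DR-labelled minus the WT-labelled library, in steps of 0.25. Purple lines mark the 7 genes and dotted lines the 2-fold threshold: VIM lies at -3.06, SNAI1 at 1.09 and the other 5 between the dotted lines.

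Ordered by RPKM, which allows levels of different genes to be compared, the sequence FN1, VIM, ZEB1, TWIST1, SNAI1, SNAI2, ZEB2 was the same in both libraries. In the WT-labelled library the RPKM levels were 781, 542, 7.23, 2.04, 0.566, 0.231 and 0.151 in that order. In the DR-labelled library they were 594, 64.8, 3.89, 1.96, 1.54, 0.349 and 0.216. The counting intervals of SNAI2 and ZEB2 overlapped in both libraries and those of TWIST1 and SNAI1 overlapped in the DR-labelled library. The median of all genes compared was 6.40 RPKM in the WT-labelled library and 6.46 in the DR-labelled one. Only ZEB1 lay on different sides of that median in the libraries. The RPKM levels of the 5 factors summed to 10.2 and 7.96 in the WT- and DR-labelled libraries, with 70.7% and 48.9% of the sum from ZEB1.

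**Figure D2:**
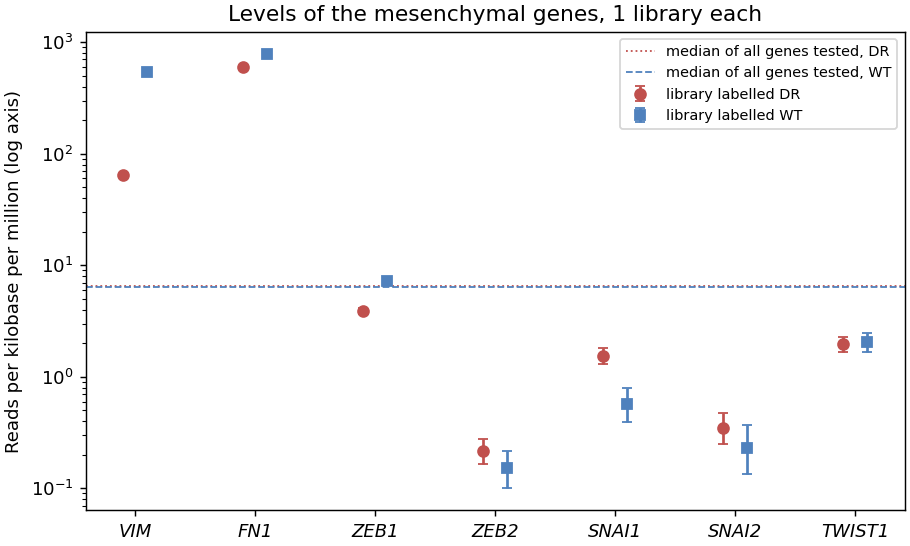
Level of each gene in RPKM (log axis) in the DR-labelled (circles) and WT-labelled (squares) libraries, with 95% Poisson counting intervals as bars. Horizontal lines are the medians of all genes compared, 6.46 and 6.40. VIM and FN1 stand far above these lines in both libraries, and ZEB2, SNAI1, SNAI2 and TWIST1 below them.

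The genes most like VIM over the 2 libraries, by Euclidean distance in log2 (CPM + 0.5), were TRAM1, which serves protein translocation at the endoplasmic reticulum, at 0.56, NSD2 at 0.89 and EDEM3, which serves degradation of misfolded glycoproteins, at 0.99. TRAM1 had 196.6 CPM in the DR-labelled library and 978.9 in the WT-labelled one, the nearest levels to those of VIM. The genes nearest to ZEB1 were NSMAF, GPHN and PPP3CC, at 0.03 to 0.05, and those nearest to FN1 were IGLL5, ITGB7 and AHNAK, at 0.79 to 0.99. Near in level, IGLL5 and ITGB7 were opposite to FN1 in direction. Their log2 differences were 0.70 and 0.69, against -0.39 for FN1 and -0.23 for AHNAK. These distances rest on the same 2 libraries, and a gene near the middle of the level range, as ZEB1 is, has many close neighbours.

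Other intermediate filament and lamina genes, listed with the filament linker PLEC, were also compared, since all but PLEC build the same class of polymer. Of the 18 genes, 14 passed the read minimum, with a median log2 difference of 0.28. Of the 14, 2 were at least 2-fold higher in the DR-labelled library and 0 lower (against 7.48% and 4.16% over all genes compared). The higher ones, named after their values were seen, were INA, a neuronal filament protein, with 79 and 5 reads, and BFSP2, a lens filament protein, with 136 and 28 reads. With a pseudocount of 5 CPM, or at a 4-fold threshold, 0 were higher, and with 0.1 CPM 1 was lower. LMNA, which encodes lamins A and C of the nuclear lamina, had 295.0 CPM in the DR-labelled library and 449.6 in the WT-labelled one, a log2 difference of -0.61 (-0.64 to -0.58). Relative to LMNA, the RPKM level of VIM was 0.534 in the DR-labelled library and 2.93 in the WT-labelled one. NES, the filament protein nestin, stood at 4.32 and 3.76 CPM in the DR- and WT-labelled libraries, with a log2 difference of 0.18 (-0.10 to 0.46).

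The cadherins, of which CDH1 is repressed and CDH2 raised in the textbook transition, differed in opposite directions. CDH1 had 1476 reads in the DR-labelled library and 291 in the WT-labelled one, 26.6 and 8.35 CPM, with a log2 difference of 1.61 (1.44 to 1.79). CDH2 had 757 and 2483 reads, 13.6 and 71.2 CPM, with a log2 difference of -2.34 (-2.46 to -2.23). CDH1 thus made up 66.1% of the reads of these cadherins in the DR-labelled library (64.1 to 68.1) and 10.5% in the WT-labelled one (9.37 to 11.7), a share that is not corrected for gene length and does not depend on how the libraries are scaled. The library with the higher CDH1 share was the one with less VIM and ZEB1 and with more SNAI1.

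Of 22 epithelial genes listed, 19 were compared, with a median log2 difference of 0.78. Of the 19, 7 were at least 2-fold higher in the DR-labelled library and 0 lower (against 7.48% and 4.16% over all genes compared). Beside CDH1, the claudins CLDN3 and CLDN7 of tight junctions had log2 differences of 2.25 and 1.43. OVOL2, a zinc finger repressor of ZEB1, had 8.55 and 3.47 CPM in the DR- and WT-labelled libraries, a log2 difference of 1.19 (0.93 to 1.45). The membrane serine protease ST14 had 532.8 and 235.3 CPM, with a log2 difference of 1.18. EPCAM, an adhesion protein of epithelial cells, had 65.8 and 38.0 CPM, and its log2 difference of 0.78 (0.69 to 0.87) lay within the 2-fold threshold.

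Mesenchymal genes other than VIM did not share its direction as a group. Of 24 listed, 20 were compared, with a median log2 difference of 0.67. Of the 20, 8 were at least 2-fold higher in the DR-labelled library and 2 lower (against 7.48% and 4.16% over all genes compared). SPARC, a matricellular glycoprotein, had 1301 reads in the DR-labelled library and 0 in the WT-labelled one. With the latter set at a floor of 3 reads, it was 272-fold higher in the former, and its 95% counting interval begins at 221-fold. CD44, the hyaluronan receptor, had 210.5 and 43.6 CPM in the DR- and WT-labelled libraries, with a log2 difference of 2.26. The collagen genes COL1A1 and COL5A1 had log2 differences of 1.57 and 1.29 at 10.3 and 14.7 CPM in the DR-labelled library. Beside VIM, the genes lower by the threshold were CDH2 and TNC, the matrix glycoprotein tenascin-C, which had 24 and 109 reads and was named after its value was seen.

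**Figure D3:**
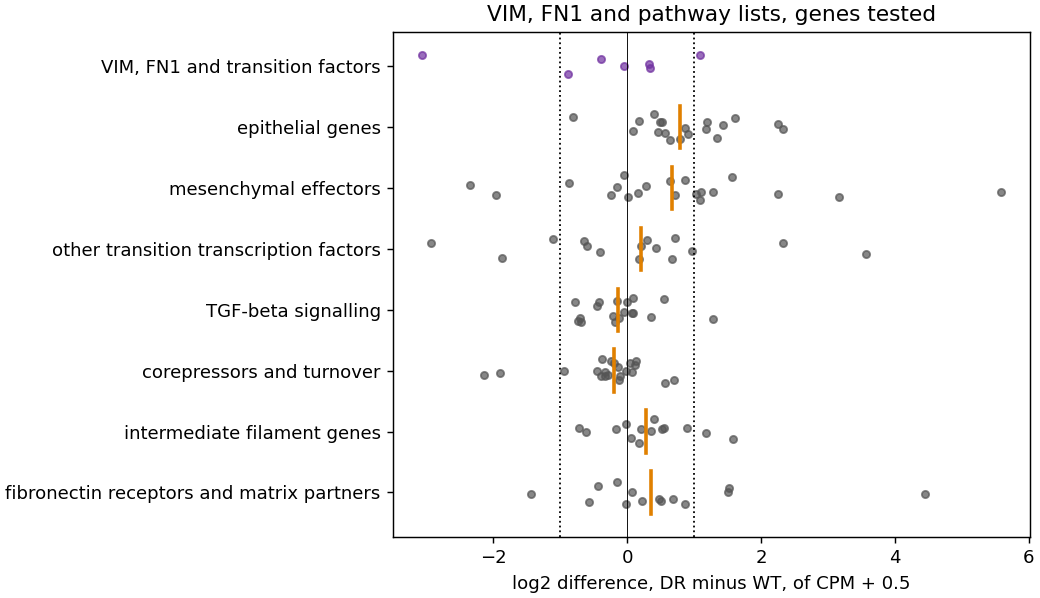
Log2 difference, the DR-labelled minus the WT-labelled library, of VIM, FN1 and the 5 factors (purple, top line) and of each gene compared in 7 pathway lists (grey), with the list median as an orange bar and the 2-fold threshold as dotted lines. The epithelial list has the highest median, 0.78, and the corepressor list the lowest, -0.20.

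Fibronectin is bound by integrins, some of which differed more than FN1 itself. Of 16 receptor and matrix genes, 14 were compared, with a median log2 difference of 0.35 (0.37 with counts of 0 set at the floor of 3 reads). Of the 14, 3 were at least 2-fold higher in the DR-labelled library and 1 lower (against 7.48% and 4.16% over all genes compared). The lower one, ITGA4, the alpha 4 chain, had 65.3 CPM in the DR-labelled library and 178.5 in the WT-labelled one, a log2 difference of -1.44 (-1.50 to -1.38). ITGA8, the alpha 8 chain, had 2630 and 59 reads, or 47.3 and 1.69 CPM, a log2 difference of 4.45 (4.15 to 4.75). The other higher genes, named after their values were seen, were the proteoglycan SDC4 and the adhesion protein TNS1, with log2 differences of 1.51 and 1.53. ITGA5, the alpha chain of the classical fibronectin receptor, stood at 5.44 and 2.75 CPM in the DR- and WT-labelled libraries, and its partner ITGB1 at 108.9 and 161.9 CPM, with log2 differences of 0.87 and -0.57. The most abundant gene of the 14, named after its value was seen, was the integrin beta chain ITGB7. It had 6319 CPM in the DR-labelled library and 3930 in the WT-labelled one, a log2 difference of 0.69 (0.68 to 0.69).

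Among the proteins with which the factors act, 21 corepressors and regulators were compared, with a median log2 difference of -0.20. Of the 21, 2 were lower by the threshold in the DR-labelled library and 0 higher (against 4.16% and 7.48% over all genes compared). The lower ones were PAK1, a kinase that phosphorylates SNAI1, with 27.9 and 124.0 CPM in the DR- and WT-labelled libraries, and NSD2, a histone methyltransferase listed as WHSC1 in the table, with 247.9 and 923.4 CPM. Their log2 differences were -2.13 (-2.22 to -2.05) and -1.90 (-1.92 to -1.87). The corepressors CTBP1, CTBP2 and KDM1A had log2 differences of 0.11, -0.02 and -0.11. TCF3 and TCF12, E proteins that pair with TWIST1, were at 332.1 and 88.4 CPM in the DR-labelled library and 519.3 and 117.8 CPM in the WT-labelled one. The RPKM level of TCF3 was 46.2 times that of TWIST1 in the former and 69.4 times in the latter.

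In TGF-beta signalling, which induces these factors in epithelial cells, 18 genes were compared, with a median log2 difference of -0.14. Of the 18, 1 was at least 2-fold higher in the DR-labelled library and 0 lower (against 7.48% and 4.16% over all genes compared). The signal transducer SMAD3 was the higher one, at 61.9 CPM against 25.1 and a log2 difference of 1.29 (1.18 to 1.39). The ligand TGFB1 had 121.9 and 198.0 CPM in the DR- and WT-labelled libraries, a log2 difference of -0.70, and the receptor TGFBR2 had 24.9 and 16.8 CPM, a log2 difference of 0.55. Of 18 other transcription factors of the transition, 15 were compared, with a median log2 difference of 0.21. By the same threshold, and beside the same shares of all genes, 2 were higher and 3 lower. PRRX1, a homeobox factor named after its value was seen, was among the higher ones. The lower ones were SOX4 (log2 difference -2.93), ID1, an inhibitor of helix-loop-helix factors (-1.87), and KLF8 (-1.11).

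Because VIM and FN1 are abundant in several other cell types, marker lists of those cells were read beside them. The summed level of the 10 fibroblast and stromal markers with counts was 19.6 CPM in the DR-labelled library and 7.57 in the WT-labelled one, with COL3A1 at 0 reads in the former and COL1A2 and PDGFRA at 0 in the latter. The 5 endothelial markers summed to 20.1 and 10.3 CPM, the 8 T and NK cell markers to 5.51 and 4.53 CPM with GNLY and GZMB at 0 in the WT-labelled library, and the 8 monocyte and macrophage markers to 70.9 and 70.8 CPM with S100A8 at 0 in the WT-labelled library. The melanocytic markers summed to 42.0 and 41.4 CPM, the epithelial and keratinocyte markers to 284.6 and 191.0 CPM, and the plasma cell markers to 13218 and 11152.5 CPM. Several of these sums were led by 1 gene, found after the values were seen. Without MITF the melanocytic markers summed to 7.40 CPM in the DR-labelled library and 6.63 in the WT-labelled one. Without CD68 the monocyte and macrophage markers summed to 14.2 and 10.6 CPM, and 7 of the 8 were higher in the DR-labelled library. Without PECAM1 the endothelial markers summed to 4.32 and 2.78 CPM. The fibroblast and stromal markers without COL1A1 summed to 9.27 and 4.45 CPM. Of these 10 markers, 8 were higher in the DR-labelled library, among them PDGFRB with 209 reads against 1, and 2 in the WT-labelled one. The epithelial and keratinocyte markers without KRT18 summed to 121.0 and 77.0 CPM. Of these 7, 5 were higher in the DR-labelled library and 2, among them KRT5, in the WT-labelled one. The direction of the plasma cell sum also depended on 1 gene. Without IGLL5, left out after the values were seen, the other 14 markers summed to 5431 CPM in the DR-labelled library and 6356 in the WT-labelled one. Of the 15, 6 were higher in the WT-labelled library, among them JCHAIN, SDC1, IRF4 and XBP1. The other 9 were higher in the DR-labelled library, among them MZB1, PRDM1, CD38, DERL3 and TNFRSF13B. Of the 10 melanocytic markers, 7 were higher in the WT-labelled library and 3 in the DR-labelled one. Some of the 7 hardly differed or were near 0. MITF had 34.6 CPM in the DR-labelled library and 34.7 in the WT-labelled one, SLC45A2 3 and 5 reads, and GPR143 1 and 2. PMEL, higher in the DR-labelled library, had 4.46 and 2.35 CPM. The median level of the 10 markers was 0.180 CPM in the DR-labelled library and 0.373 in the WT-labelled one. The part of these cell types in the difference of VIM was not tested. In bulk RNA, fewer cells of a type and less RNA per cell cannot be told apart.

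**Figure D4:**
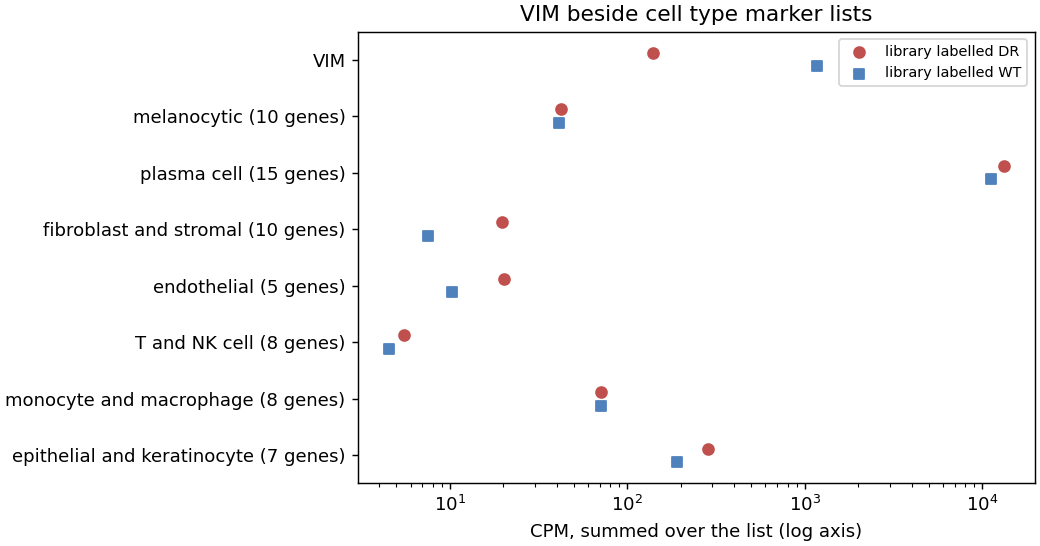
Level of VIM and summed level of 7 cell type marker lists in CPM (log axis) in the DR-labelled (circles) and WT-labelled (squares) libraries, with the number of genes with counts in each list. VIM stands at 139.4 CPM in the DR-labelled and 1166.5 CPM in the WT-labelled library, and the plasma cell sum, which IGLL5 leads, at 13218 and 11152.5 CPM.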

How the data were processed

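The 2 RNA libraries, labelled DR and WT, were read from 1 table. The authors deposited estimated counts per gene, not scaled for library size and partly fractional, with gene lengths. The submitters' processing notes name Bowtie 0.12.2 and hg19. The counting tool, annotation and use of strand are not given in the sources used here, so reads of VIM-AS1, ZEB1-AS1 and ZEB2-AS1, which overlap these genes in RefSeq, and of the pseudogene VIM2P cannot be told apart. Columns with the authors' log2 ratio, p-value and q-value were not used.

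Estimated counts were rounded, scaled by TMM (edgeR 4.0.16, R 4.3.3; factors 1.01 and 0.988) and expressed as CPM. Genes with fewer than 10 reads (2057) were left out, and 0.5 CPM was added before log2. RPKM used the deposited lengths. A single library per label leaves no dispersion to estimate, so the quasi-likelihood model was not run and no p-value was computed. Counting intervals for differences came from the exact Clopper-Pearson bounds (95%) on the reads' split between the libraries, and those for single levels were Poisson intervals (SciPy 1.17.1, Python 3.11.15). In the DR- and WT-labelled libraries 3 reads equal 0.054 and 0.0861 CPM. The scripts were checked on counts drawn with known changes.

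The genes and lists were chosen with earlier results of these data known. Named were, of each list, up to 6 genes beyond 2-fold whose mean level reached 5 CPM, and CDH1, CDH2, EPCAM, TCF3, TCF12, CTBP1, CTBP2, KDM1A, NSD2, TGFB1, TGFBR2, ITGA4, ITGB1, ITGA5, NES and LMNA. Nearest genes were sought for VIM, FN1 and ZEB1, whose means pass the same minimum. NSD2 and TBXT were matched by NCBI Gene ID. The values of 1 listed gene are not reported here. Alternatives were DESeq2 1.42.0 size factors, library totals, pseudocounts of 0.1 and 5 CPM, no filter, 50 reads, unrounded counts, a 4-fold threshold, levels without length and, added after the data were seen, marker sums without the leading gene.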

Additional observations from a re-analysis of the deposited data

How the results depend on the processing

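No paired analysis was possible because each label has a single library, and none could be left out. The direction of each of the 7 genes was the same under every alternative run. With DESeq2's size factors, no filter, at least 50 reads, unrounded counts and a pseudocount of 0.1 CPM, the log2 differences of all 7 genes stayed within their counting intervals. Library totals gave -3.03 for VIM and -0.36 for FN1. A pseudocount of 5 CPM, which shrinks low levels by its construction, gave -3.02 for VIM, -0.77 for ZEB1 and 0.36 for SNAI1, so that 0 of the 7 genes were then higher by 2-fold, and 423 and 333 of all genes were higher and lower against 1212 and 674. A 4-fold threshold gave 339 and 189 of all genes and 0 of the 7 genes higher, with VIM still lower. Levels without division by length put 2 genes, SNAI2 and ZEB2, in the other order. Of 14 list counts, 6 moved by over 1.5 times with 5 CPM, 9 at 4-fold and 1 with 0.1 CPM. With 5 CPM the higher counts were 3 epithelial, 3 mesenchymal, 1 other factor, 0 filament and 1 receptor gene, and at 4-fold 2 epithelial, 3 mesenchymal, 0 TGF-beta, 0 filament and 1 receptor gene. The lower counts were 1 mesenchymal gene under both, and at 4-fold 1 other factor, 1 corepressor and 0 receptor genes. Depth limits ZEB2, SNAI2 and TWIST1, with 17 to 167 reads in a library.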

Other observations

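Some desmosome and keratin genes, which belong to the epithelial state that the ZEB and SNAI factors repress, were expressed in both libraries and others were near 0. They were named after their values were seen. DSP, the desmosomal plaque protein desmoplakin, had 731.8 CPM in the DR-labelled library and 391.3 in the WT-labelled one, a log2 difference of 0.90. JUP, plakoglobin, had 183.3 and 133.5 CPM, and the keratin KRT18 had 163.6 and 114.0 CPM. Keratin 8 (KRT8), the usual filament partner of keratin 18, was at 4.22 and 3.14 RPKM against 112.0 and 78.1 for KRT18. The keratin KRT19 had 0 and 2 reads, and PKP3, a desmosomal plakophilin, had 119 and 19. CRB3, a polarity protein, had 312 reads in the DR-labelled library and 25 in the WT-labelled one.

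Some mesenchymal regulators were also unlike VIM in direction. PRRX1, a homeobox factor of mesenchyme, had 488 reads in the DR-labelled library and 10 in the WT-labelled one. TGFBI, a matrix protein named for its induction by TGF-beta, had 522 and 21 reads. SNAI3 was the most abundant SNAI gene per length in both libraries, at 9.73 and 6.03 RPKM, and SNAI1 gave 13.2% and 8.27% of the reads of SNAI1, SNAI2 and SNAI3 together. TCF4, an E protein, had 384.2 and 312.6 CPM. These genes too were named after their values were seen, and no difference in this paragraph has a replicate check.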
